A study of Mus musculus with 6 samples.

Results

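The NF-kB pathway was followed through 33 genes, chosen by name as its inhibitors, subunits, kinases, adaptors and well-known targets. Of these, 30 were measured, out of 18193 genes on the array, and Nfkb1, Chuk and Tnip3 were not analysed here. Each gene was read from its brightest probe set, which among those assigned to that gene alone has the highest average over the 6 arrays. Gene expression had been measured with 1 Affymetrix array per mouse in intestinal epithelial cells of C57BL/6 mice. The 3 control mice carried the floxed casp8 gene and no villinCre (floxed control), and the 3 caspase-8 deficient mice carried the same floxed gene together with villinCre. Villin is an actin-bundling protein of the intestinal epithelium, and its promoter drives Cre recombinase there. All mice carry the floxed allele, and the controls lack Cre, so the presence of Cre and the loss of caspase-8 cannot be told apart in this design. The labels give neither the age of the mice nor the stretch of gut. The comparison asks whether loss of caspase-8 in the epithelium was accompanied by different mRNA levels of this pathway.

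NF-kB is a dimer of Rel family proteins that inhibitors of the IkB family hold in the cytoplasm. Receptors of TNF, interleukin-1 and bacterial products activate the IkB kinase (IKK) complex, which marks the inhibitor for destruction, and the freed dimer enters the nucleus and binds kB sites in DNA. Several of its targets encode brakes, such as IkBα itself, so that the response ends. Of these receptors, those of TNF also signal through complexes that hold caspase-8, which decides between cell death and survival signalling there. In the gut epithelium NF-kB signalling is known for keeping the barrier intact and for calling in immune cells. The arrays measure mRNA, and the pathway is switched largely by phosphorylation, degradation and movement of its proteins, which an array does not see.

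The kB site is the sequence that NF-kB dimers bind, and the stretches that hold a match are shown for 10 of the genes because the list was grouped partly by NF-kB control. The classical kB consensus starts with GGG, goes on with a purine, any pair of bases and a pair of pyrimidines, and ends with CC. It was searched on both strands in RefSeq windows of 300 bases (250 before to 50 after each annotated start, build GRCm38.p6). Of the 30 genes, 24 had a window, and 13 of these (54.2%) held at least 1 match, against 1689 of 14452 measured genes with a window (11.7%) and 8.46% of all 32851 windows. A match is a description of the letters and not of binding, and the list was partly made of genes known as targets. The stretches below read 5′ to 3′ along the gene's strand and end before the annotated start, with the matched bases in capitals; overlapping matches run together.
Nfkbia, chr12:55492648-55492701, minus strand, 54 to 1 bases before the start: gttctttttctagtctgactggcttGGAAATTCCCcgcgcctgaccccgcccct
Nfkbie, chr17:45555569-45555628, plus strand, 131 to 72 bases before the start: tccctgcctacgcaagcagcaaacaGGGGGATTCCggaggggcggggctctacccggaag
Nfkb2, chr19:46304673-46304736, plus strand, 64 to 1 bases before the start: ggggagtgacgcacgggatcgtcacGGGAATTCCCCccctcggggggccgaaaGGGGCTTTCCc
Rel, chr11:23771026-23771086, minus strand, 117 to 57 bases before the start: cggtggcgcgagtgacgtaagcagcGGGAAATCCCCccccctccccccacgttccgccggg
Tnip1, chr11:54962962-54963023, minus strand, 83 to 22 bases before the start: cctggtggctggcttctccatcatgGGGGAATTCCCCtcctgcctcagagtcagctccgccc
Ier3, chr17:35821596-35821655, plus strand, 117 to 58 bases before the start: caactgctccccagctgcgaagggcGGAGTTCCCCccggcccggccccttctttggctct
Cxcl2, chr5:90903777-90903837, plus strand, 122 to 62 bases before the start: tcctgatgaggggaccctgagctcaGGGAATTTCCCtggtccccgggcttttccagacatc
Il6, chr5:30013045-30013104, plus strand, 69 to 10 bases before the start: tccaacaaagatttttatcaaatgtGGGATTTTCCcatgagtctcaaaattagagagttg
Csf1, chr3:107760589-107760648, minus strand, 179 to 120 bases before the start: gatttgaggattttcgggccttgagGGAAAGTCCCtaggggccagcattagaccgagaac
Sod2, chr17:13007731-13007790, plus strand, 108 to 49 bases before the start: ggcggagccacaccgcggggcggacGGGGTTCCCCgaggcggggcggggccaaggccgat
The window of Nfkb2 holds separate matches, of which the nearer ends 2 bases before the start shown, 1 of 3 annotated starts of this gene whose window holds a match. Over all measured genes with a window, the median log2 difference (deficient minus control) was 0.022 with a match and 0.020 without, and 17.6% and 16.6% of them had an unadjusted p under 0.05 in limma, the linear model fitted to every gene. Of the 13 pathway genes with a match, 0 reached that p, and of the 11 without a match 2 did.

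The 6 arrays differed in ways that touch these genes. Casp8, the targeted gene, read 10.53, 9.74 and 10.24 on control arrays and 9.27, 9.56 and 10.40 on deficient arrays, on the log2 scale (limma adjusted p = 0.518). Its single probe set may lie outside the removed exons, so it does not check the genotypes. Degraded RNA raises the signal of the 3′ over the 5′ Gapdh control probe set. This difference stood at 0.68 for control replicate 1, 0.93 for control replicate 2 and 0.21 to 0.29 on the other 4 arrays. In deficient replicate 1, 211 genes exceeded all 5 other arrays by more than 1 log2 unit, where the other arrays had 1 to 33 such genes. The mean of 11 epithelial markers was high on all arrays, at 12.60 to 12.68 in the controls and 12.69 to 12.75 in the deficient mice. The 11 endothelial markers averaged 6.21 in deficient replicate 1 and 3.84 to 4.20 elsewhere. The 7 markers of B and plasma cells averaged 5.09 to 6.30 in the controls and 4.76 to 5.07 in the deficient mice, the 11 T cell markers 8.07 to 8.54 and 7.81 to 8.38, the 14 myeloid markers 5.59 to 6.04 and 5.86 to 5.91, and the 13 markers of fibroblasts and smooth muscle 4.51 to 5.03 and 4.56 to 5.54. Of the 14 myeloid markers 2 passed (14.3%), against 0.775% of all genes, and they went opposite ways. Lyz2 fell by 1.54 and Mrc1 rose by 1.06 (limma adjusted p = 0.00395 and 0.0172). Lyz2, at a control mean of 9.87, was the brightest marker of this list, and which cells gave its signal was not tested. In bulk samples a different number of cells of a type and a different amount of RNA per cell cannot be told apart.

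No NF-kB component or target changed past the threshold. Of the 30 genes, 0 passed an adjusted p of 0.05 in limma, adjusted by Benjamini-Hochberg over all 18193 genes, of which 141 (0.775%) passed, 0.308% higher and 0.467% lower. At that background a count of 0 among 30 genes is near what all genes show. The smallest adjusted p was 0.123, for Nfkbib. At an unadjusted p under 0.05 there were 2 of 30 genes (6.67%), Nfkbib with a higher and Ptgs2 with a lower mean in the deficient cells, against 16.6% of all genes (8.12% higher, 8.53% lower). The groups did not overlap in 4 of 30 genes (13.3%), against 22.7% of all genes (11.5% higher, 11.2% lower). Nfkbib and Rel lay higher on every deficient array than on any control, and Ptgs2 and Ccl2 lower.

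**Figure D1:**
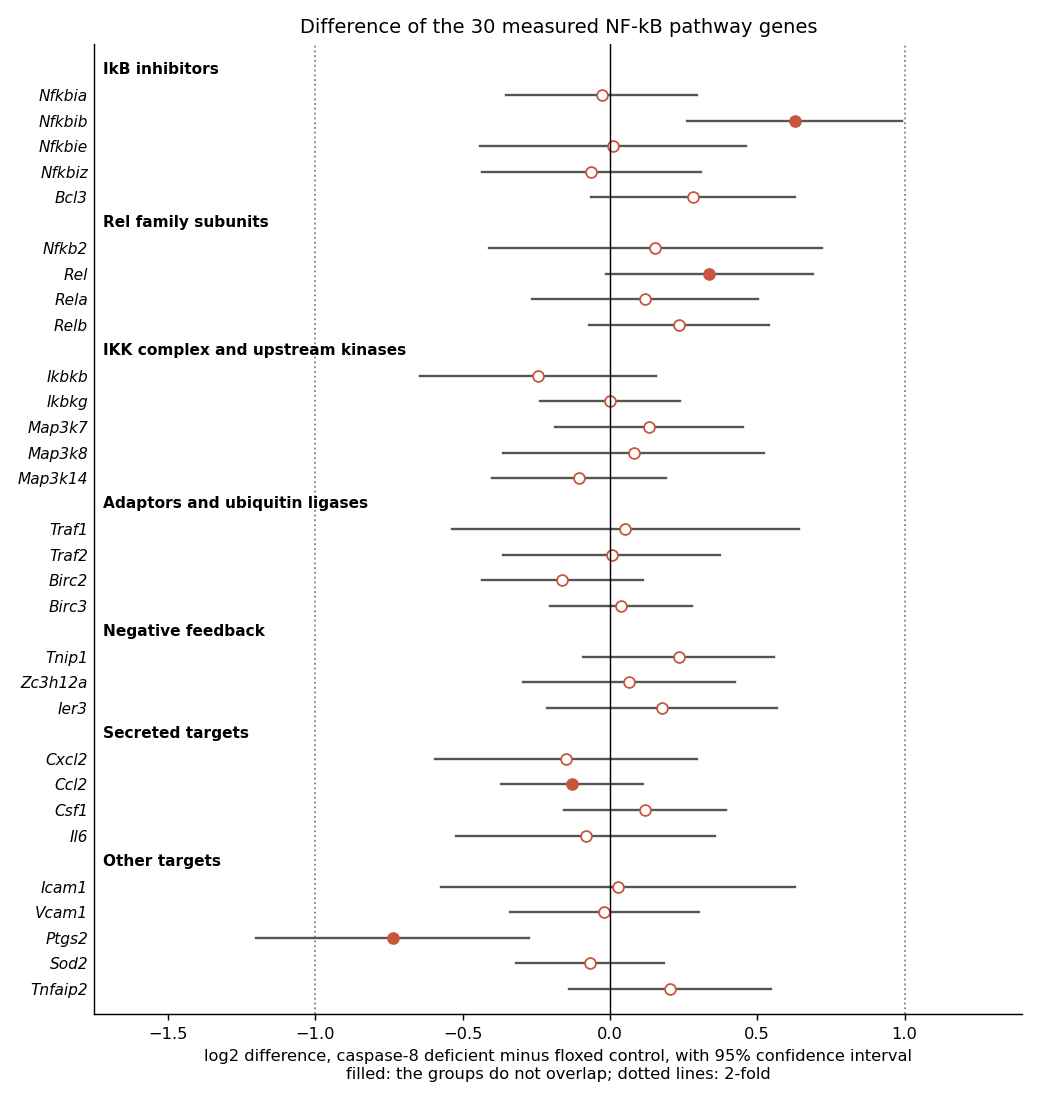
Log2 difference between caspase-8 deficient and floxed control cells (x axis) for the 30 measured genes, in order of role, with the 95% confidence interval from limma (3 arrays per group). Filled points mark the 4 genes whose groups do not overlap; the interval excludes 0 for Nfkbib and Ptgs2 alone, and it reaches past a 2-fold difference (dotted lines) for Ptgs2 alone.

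The differences were small and went both ways. Of the 30 genes 19 had a positive and 11 a negative log2 difference (21 and 9 with each array centred on its median), and the median was 0.032, against 0.022 over all genes. The median absolute difference was 0.12, against 0.16 over all genes. For 29 of the 30 genes (96.7%) the 95% confidence interval lay within a log2 difference of 1, or 2-fold, in either direction, as it did for 92.4% of all genes. For 14 of 30 it lay within 0.5. The standard errors ran from 0.10 to 0.26. The 30 genes had 68 probe sets in all, of which 0 passed in the fit over all single-gene probe sets (5 had an unadjusted p under 0.05). Of the 38 not used 29 had a positive difference and 9 a negative one. By the probe set used, 53.9% of all genes had a positive difference, 16.6% an unadjusted p under 0.05 in limma, and 0.775% passed. Shares over all probe sets were not counted, so the probe set counts have no background of their own. Probe sets of the same gene are not independent, so the split of 29 and 9 is not a count of genes. These intervals bound the array signal and not the mRNA: RMA, the method that made the values, understates differences of dim genes, and 13 of the 30 genes lay below the median gene.

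The IkB inhibitors hold Rel dimers inactive. Nfkbia, which encodes IkBα, the main rapid brake and a textbook NF-kB target, read 11.92, 12.01 and 12.07 on control arrays 1 to 3 and 11.88, 12.23 and 11.80 on deficient arrays 1 to 3. The deficient arrays lay on both sides of the controls, and the difference was −0.03 (95% confidence interval −0.35 to 0.29, limma adjusted p = 0.943). Its other 4 probe sets gave differences from 0.00014 to 0.10, so the sign depended on the probe set and all stood near 0.

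Nfkbib encodes IkBβ, a slower-acting inhibitor. It read 7.48, 7.87 and 7.64 on control arrays and 8.03, 8.43 and 8.41 on deficient arrays. Every deficient array was above every control, with the lowest deficient value 0.16 above the highest control. The means were 7.66 ± 0.19 and 8.29 ± 0.23 (SD, n = 3), a difference of 0.63 (SE 0.16, 95% confidence interval 0.26 to 0.99), or 1.54-fold. This did not pass in limma (unadjusted p = 0.00421, adjusted p = 0.123). The probe set is of a type that can also read related transcripts (suffix _s_at), and the gene's other probe set, which is dim, gave 0.23 with overlapping groups. With limma's array weights, which count control replicate 1 and deficient replicate 2 most, Nfkbib was at 0.81 with an adjusted p of 0.0131. In the other alternatives that kept more than 1 control array, the limma adjusted p was 0.0643 to 0.467. The mean of the epithelial markers was also higher on every deficient array, but only just (highest control 12.68, lowest deficient 12.69). The groups were separate for 6 of these 11 markers (54.5%), against 22.7% of all genes. Of the 11, 8 had a positive and 3 a negative difference, and 0 passed, where 0.775% of all genes did. The part of the epithelial markers in the Nfkbib value was not tested.

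Nfkbie encodes IkBε, another inhibitor of the same family. It read 5.30, 5.86 and 5.86 on control arrays and 5.40, 5.86 and 5.79 on deficient arrays. Replicate 1 was the low array in each group, and the difference was 0.010 (adjusted p = 0.987), with 0.31 by a second, dimmer probe set. Nfkbiz and Bcl3 encode atypical IkB proteins that act in the nucleus with p50 or p52 dimers. Nfkbiz read 10.07, 10.24 and 9.9999 on control arrays and 9.75, 10.31 and 10.07 on deficient arrays, with overlapping groups and a difference of −0.06 (adjusted p = 0.878). Its other probe sets went lower, at −0.25 and −0.55. The latter read 8.42, 8.57 and 8.39 on control arrays and 7.69, 7.98 and 8.08 on deficient arrays, which do not overlap, and did not pass in the fit over all probe sets (adjusted p = 0.144). Bcl3 read 7.93, 8.31 and 8.39 on control arrays and 8.37, 8.59 and 8.52 on deficient arrays. Deficient replicate 1 lay between the controls, and the difference was 0.28 (SE 0.15, adjusted p = 0.393). It was 0.14 without control replicate 1 and 0.49 with array weights (limma adjusted p = 0.0672). Without both controls of high Gapdh difference, which leaves control replicate 3 as the only control, it was 0.099.

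**Figure D2:**
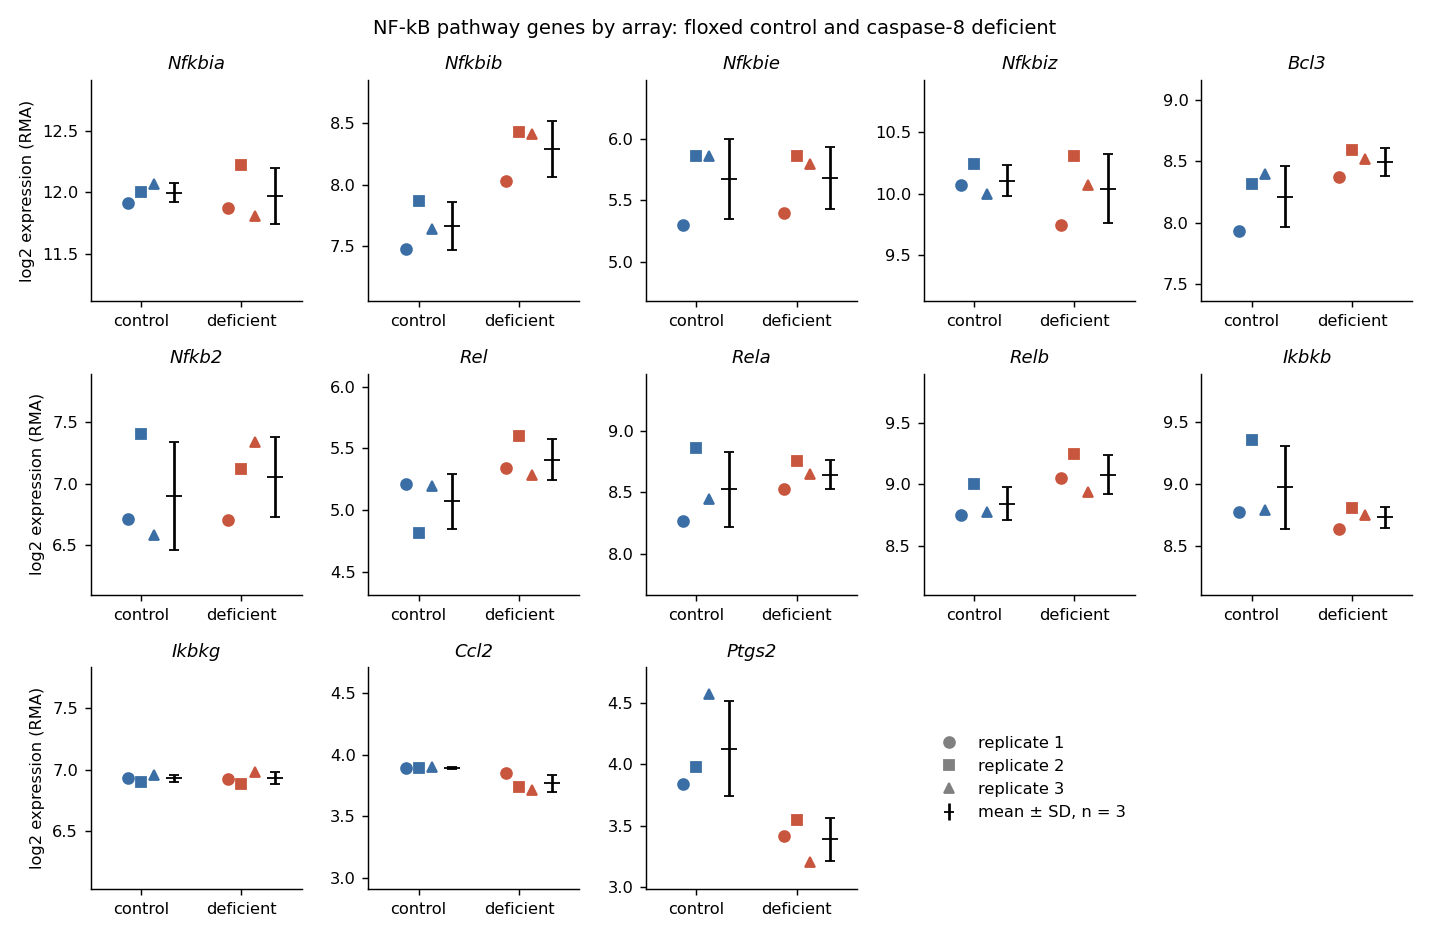
Log2 expression (y axis, 1.8 log2 units in every panel) of 13 genes on each of the 3 floxed control and 3 caspase-8 deficient arrays, with symbols for the replicate number and bars for the mean and SD of 3 arrays. The groups are separate for Nfkbib, Rel, Ccl2 and Ptgs2, with a gap of 0.16 for Nfkbib, and overlap for the other 9.

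The Rel family encodes the DNA-binding subunits, and its 4 measured genes all had a positive difference that did not pass. Rel, which encodes the c-Rel subunit best known from lymphocytes, read 5.21, 4.81 and 5.19 on control arrays and 5.34, 5.60 and 5.29 on deficient arrays. The groups did not overlap, by a gap of 0.077, and control replicate 2 was the lowest array. The difference was 0.34 (SE 0.15, 95% confidence interval −0.01 to 0.69, limma adjusted p = 0.320). Without control replicate 2 it was 0.21, and with the Gapdh difference as a covariate 0.16.

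Rela encodes p65, the activating partner of the classical dimer. It read 8.27, 8.86 and 8.45 on control arrays and 8.53, 8.76 and 8.65 on deficient arrays, so that the deficient values lay inside the control range, and the difference was 0.12 (adjusted p = 0.762). Relb, the subunit of the alternative pathway, read 8.75, 9.001 and 8.78 on control arrays and 9.05, 9.25 and 8.93 on deficient arrays. Only deficient replicate 3 lay below a control, replicate 2, and the difference was 0.23 (SE 0.13, adjusted p = 0.419). Without deficient replicate 2 it was 0.15, and with array weights 0.37 (adjusted p = 0.0746). Nfkb2, which encodes p100 and its product p52, read 6.71, 7.40 and 6.58 on control arrays and 6.70, 7.12 and 7.34 on deficient arrays. The difference was 0.15 (SE 0.25, limma adjusted p = 0.792). Control replicate 2 was the highest array for Nfkb2 and Rela. The positive sign held for all 4 genes under both rescalings tried and was lost for Rela without control replicate 1 (−0.010) and for Nfkb2 without control replicate 3 (−0.0051).

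The IKK complex phosphorylates IkB. Ikbkb, its catalytic subunit IKKβ, read 8.77, 9.36 and 8.79 on control arrays and 8.64, 8.80 and 8.75 on deficient arrays. Control replicate 2 stood alone at the top, and the other 5 arrays lay within 0.17 of each other. The difference was −0.24 (SE 0.17, adjusted p = 0.517), and without control replicate 2 it was −0.05, and with the Gapdh covariate −0.0018. Its 4 other probe sets gave −0.34, −0.30, 0.043 and 0.18. The first of these read 6.91, 6.68 and 6.80 on control arrays and 6.50, 6.51 and 6.37 on deficient arrays. Its groups did not overlap, control replicate 2 was the lowest control, and it did not pass in limma over all probe sets (adjusted p = 0.238). Ikbkg, the regulatory subunit NEMO that binds ubiquitin chains, varied little, at 6.93, 6.90 and 6.96 on control arrays and 6.93, 6.88 and 6.98 on deficient arrays. The difference was 0.00044 (95% confidence interval −0.24 to 0.24, adjusted p = 0.999), with 0.082 to 0.20 by its 5 other probe sets.

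Of the kinases upstream of IKK, Map3k7 encodes TAK1, which activates IKK after TNF and interleukin-1. It averaged 7.04 ± 0.14 on control arrays and 7.18 ± 0.18 on deficient arrays (SD, n = 3), a difference of 0.13 (limma adjusted p = 0.671). Its 5 other probe sets ran from −0.0083 to 0.34, and 2 of them had separate groups, as did 22.7% of all genes by the probe set used. Map3k14, the kinase NIK of the alternative pathway, stood at −0.11 (adjusted p = 0.720). Map3k8, the kinase TPL2 that is held by p105, stood at 0.081 (adjusted p = 0.869) with means near 3, where RMA compresses differences. None of these kinases had separate groups by the probe set used.

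The adaptors and ubiquitin ligases link TNF receptors to IKK. Traf2, which recruits the ligases, averaged 7.23 ± 0.21 on control arrays and 7.24 ± 0.22 on deficient arrays (SD, n = 3), a difference of 0.0054 (limma adjusted p = 0.992). Birc2 and Birc3 encode the ligases cIAP1 and cIAP2. Birc2 stood at −0.16 (SE 0.12, adjusted p = 0.526) and Birc3, an NF-kB target, at 0.038 (95% confidence interval −0.20 to 0.28, adjusted p = 0.891). Traf1, a target that joins TRAF2 complexes, read 4.23, 5.09 and 4.94 on control arrays and 4.50, 4.74 and 5.17 on deficient arrays. Replicate 1 was the lowest array of each group, as it was for the mean of the T cell markers, whose part in this was not tested. The difference was 0.052 (SE 0.26, adjusted p = 0.942), and a second probe set gave −0.40 without passing.

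Of 3 further negative regulators and early response genes that NF-kB induces, 0 passed, where 0.775% of all genes did. Tnip1, a ubiquitin-binding partner of the deubiquitinase A20, averaged 9.49 ± 0.22 on control arrays and 9.73 ± 0.10 on deficient arrays (SD, n = 3), a difference of 0.23 (SE 0.14, adjusted p = 0.448). Ier3, an early response gene linked to cell survival, stood at 0.18 (adjusted p = 0.642), with deficient replicate 3 the highest array at 7.56. Zc3h12a, the RNase regnase-1 that degrades inflammatory mRNAs, stood at 0.065 (adjusted p = 0.873).

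The secreted targets are the usual readouts of an inflamed epithelium, and 0 of the 4 on the list passed, which is near what any 4 genes show where 0.775% of all genes passed. Ccl2, which attracts monocytes, read 3.90, 3.89 and 3.91 on control arrays and 3.85, 3.74 and 3.72 on deficient arrays. The groups did not overlap because the controls lay within 0.015 of each other, and the highest deficient array was only 0.041 lower. The difference was −0.13 (95% confidence interval −0.37 to 0.11, adjusted p = 0.574). Cxcl2, a neutrophil attractant, averaged 4.64 ± 0.15 on control arrays and 4.49 ± 0.37 on deficient arrays (SD, n = 3), with deficient replicate 2 the highest array and replicate 3 the lowest (difference −0.15, adjusted p = 0.738). Il6, the cytokine interleukin-6, read 1.83 to 2.47 over the 6 arrays, near the bottom of the table, with a difference of −0.082 (adjusted p = 0.867). Csf1, the macrophage growth factor, stood at 0.12 (adjusted p = 0.660), and its 3 other probe sets gave 0.071 to 0.11. The table holds no detection calls, so for Il6 and Ccl2 it cannot be said whether the mRNA was present.

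Among the remaining targets Ptgs2 had the largest difference of the list. It encodes cyclooxygenase-2, the inducible enzyme of prostaglandin synthesis. It read 3.84, 3.98 and 4.57 on control arrays and 3.41, 3.55 and 3.21 on deficient arrays. Every deficient array was below every control, and control replicate 3 stood 0.59 above the next control. The means were 4.13 ± 0.39 and 3.39 ± 0.17 (SD, n = 3), a difference of −0.74 (SE 0.20, 95% confidence interval −1.20 to −0.27), or 1.67-fold lower. This did not pass in limma (unadjusted p = 0.00628, adjusted p = 0.144). Without control replicate 3 the difference was −0.52 (limma adjusted p = 0.173), and with the mean of probe sets it was −0.38. Leaving out both controls of high Gapdh difference keeps only control replicate 3, the highest control, and the difference was then −1.18. Over the other alternatives at gene level the limma adjusted p of Ptgs2 was 0.103 to 0.357. Its second probe set, at a mean of 1.97, gave −0.03. Control replicate 3 was also the array with the highest mean of B and plasma cell markers, at 6.30. Among the controls it was highest for the fibroblast and smooth muscle markers too, at 5.03 against 4.51 and 4.57, with deficient replicate 1 higher still at 5.54. The part of either cell type in the Ptgs2 value was not tested.

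Icam1 and Vcam1 encode adhesion molecules that bind white blood cells and are best known from endothelium. Icam1 read 4.33, 5.28 and 5.19 on control arrays and 4.66, 5.15 and 5.08 on deficient arrays, again with replicate 1 lowest in each group, and the difference was 0.027 (SE 0.26, adjusted p = 0.971). Vcam1 read 4.51, 4.49 and 4.39 on control arrays and 4.62, 4.19 and 4.52 on deficient arrays (difference −0.019, adjusted p = 0.961). Deficient replicate 1, whose endothelial markers averaged 6.21 against 3.84 to 4.20 elsewhere, was the highest array for Vcam1 by 0.092 and the second lowest for Icam1. Sod2, the mitochondrial superoxide dismutase that NF-kB induces against oxidative death, averaged 10.24 ± 0.10 on control arrays and 10.17 ± 0.03 on deficient arrays (SD, n = 3), a difference of −0.068 (95% confidence interval −0.32 to 0.18, adjusted p = 0.792). Tnfaip2, a TNF-induced gene, stood at 0.20 (adjusted p = 0.524).

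The array that read highest or lowest differed from gene to gene. Control replicate 1 was the lowest array for 9 of the 30 genes and the highest for 1, where over all genes it was the lowest for 16.1%. Deficient replicate 2 was the highest for 9 of 30 (over all genes, for 12.2%) and control replicate 2 for 7. The median deviation from the control mean over the 30 genes was −0.077, 0.093 and −0.00021 on control arrays and −0.041, 0.10 and 0.069 on deficient arrays. The spread of these medians among arrays of a group was therefore wider than the distance between the groups. Without deficient replicate 1, the array that stood apart, 0 of 30 genes passed and the median difference was 0.098, and leaving out any other single array also gave 0 of 30.

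**Figure D3:**
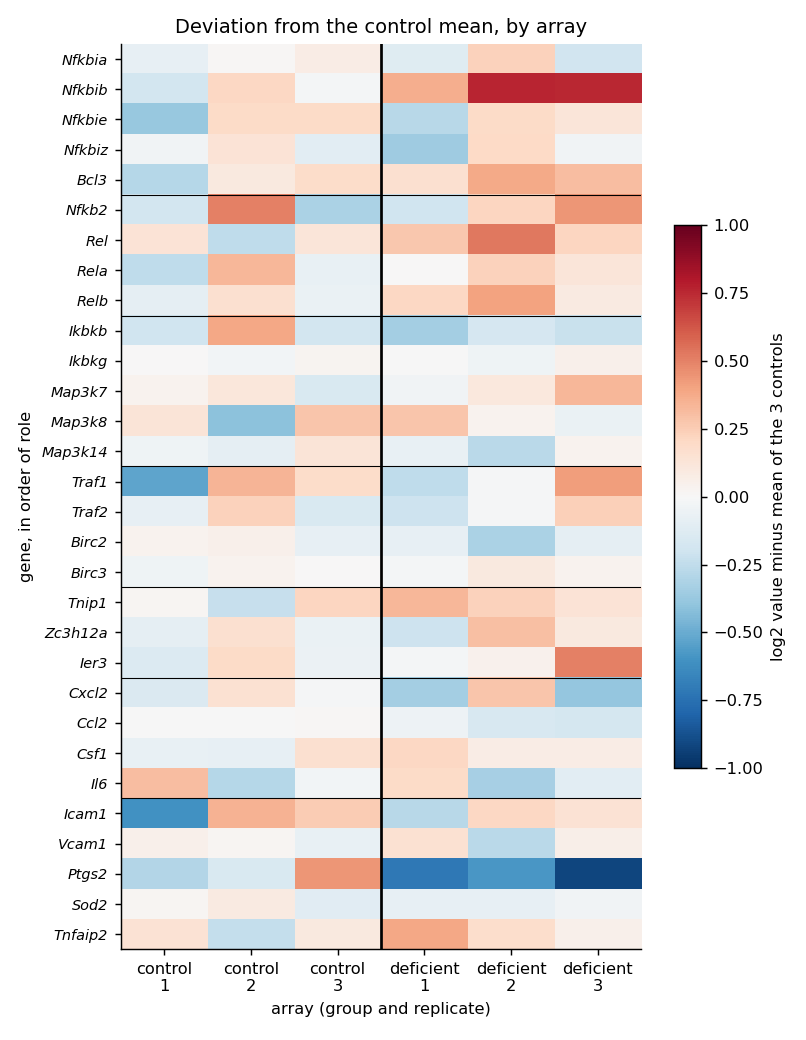
Log2 value minus the mean of the 3 controls (colour, from −1 to 1) for the 30 genes (rows, in order of role, lines between roles) on the 6 arrays (columns). Nfkbib is above the control mean and Ptgs2 below it on all 3 deficient arrays, while Nfkb2, Traf1 and Icam1 vary as much within a group as between groups.

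The rest of the pathway was read from 73 further genes, of which 65 were measured. They mix genes of TNF, Toll-like and antigen receptor signalling to NF-kB with targets such as Cxcl1, Ccl20 and Nos2. In limma 0 of 65 passed over all genes, and 16 (24.6%) had an unadjusted p under 0.05, 11 higher and 5 lower, against 16.6% of all genes. The median difference was 0.038 and the median absolute difference 0.19. The smallest p belonged to Irak2, a kinase of interleukin-1 and Toll-like receptor signalling, which read 8.03 on each control and 8.63, 8.57 and 8.80 in the deficient mice. The difference was 0.63 (SE 0.11, adjusted p = 0.0532). Its 3 control values lay within 0.00074 of each other. In 6 of 16 alternatives Irak2 passed, namely with median centring, with a repeated quantile normalisation, with a variance trend and robust prior, without dim genes, with array weights and with genes read as the mean of their probe sets, a setting that left the difference of Irak2 itself at 0.63. In the other 10 it did not, leaving out any 1 array included. The fit with a single control array is among these 10, and over the remaining alternatives the limma adjusted p ran from 0.0133 to 0.293.

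Tradd, the adaptor that binds TNF receptor 1, came next, at 9.59, 9.66 and 9.70 on control arrays and 10.03, 10.08 and 10.14 on deficient arrays (difference 0.44, SE 0.11, adjusted p = 0.112). Tnfaip3 encodes A20, the deubiquitinase that ends NF-kB signalling, and is named after its value was seen. It read 8.54, 8.79 and 9.02 on control arrays and 9.22, 9.77 and 9.21 on deficient arrays, a difference of 0.61 (SE 0.19, adjusted p = 0.185). Its groups did not overlap, as for 16 of the 65 genes (24.6%) and 22.7% of all genes. Those of Nfkbia, another classical feedback target, did overlap. Whether the difference of Tnfaip3 exceeds that of Nfkbia was not tested.

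**Figure D4:**
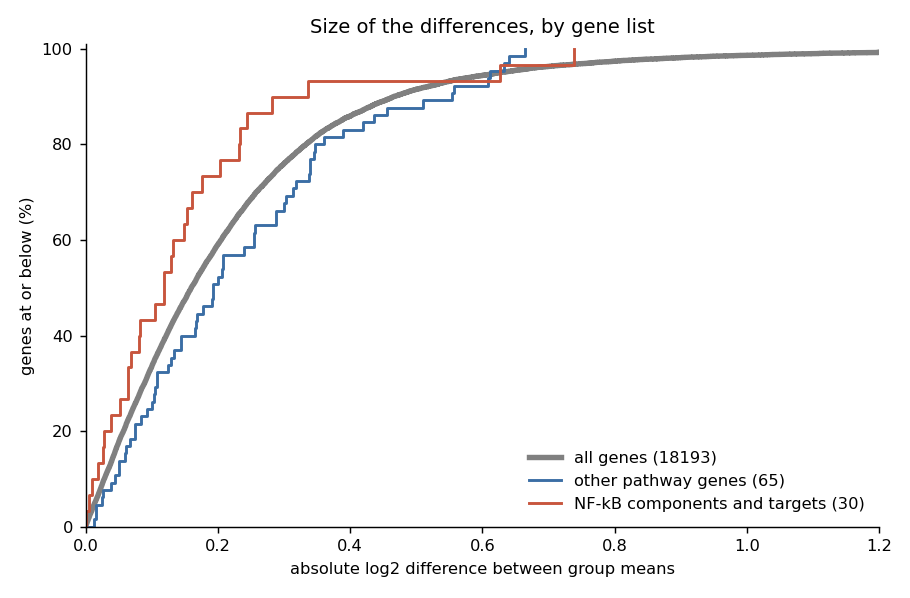
Share of genes (y axis, percent) whose absolute log2 difference between the group means is at or below the value on the x axis, for the 30 NF-kB components and targets, the 65 other pathway genes and all 18193 genes. The median is 0.12 for the first list, 0.19 for the second and 0.16 for all genes.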

How the data were processed

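RNA of intestinal epithelial cells from 3 floxed control and 3 caspase-8 deficient mice was hybridised to 1 array each. The authors deposited log2 expression values made with RMA, per the submitters' processing notes. This method subtracts background, equalises the arrays and summarises probes, which understates differences of dim genes; its version is not given in the sources used here. Values ran from 1.13 to 14.1. Precision is limited by the number of arrays. Of 45101 probe sets, 34945 had 1 gene in the platform annotation (dated, so symbols can be old), 932 several and 9160 none, beside 64 control probe sets. Of the 34945, 34741 matched RefSeq by Entrez number and 0 were renamed.

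The brightest single-gene probe set stood for a gene. Deficient minus control was fitted for all 18193 genes with limma 3.58.1 (R 4.3.3, lmFit and eBayes, two-sided, no covariates). Benjamini-Hochberg adjustment ran over all genes, with a threshold of 0.05. On simulated data with independent normal noise (10 draws, 200 genes changed), 89% of changes of 1 log2 unit were recovered and 6.11% of calls were false. The simulation held no degraded or outlying array, so it does not show how the fit behaves on these arrays. Python 3.11.15, pandas 2.3.3 and matplotlib 3.10.9 were used for tables and plots. Members, lists and tests were chosen with earlier results of these data known. All 6 values are given for the core inhibitors, subunits and IKK genes, and for members that passed, had separate groups, an unadjusted p under 0.05 or an absolute difference of at least 0.5; a few further members are shown so to describe the arrays. Of the other pathway genes, the 2 with the smallest p are named, and Tnfaip3 beyond this rule; of the markers, those that passed. The p-values measure the spread between the mice. The labels name no pairing of same-numbered arrays, and the main fit used none. Deviations of these arrays from the group means correlated at 0.077, 0.10 and −0.0074, which cannot settle whether the mice were paired. Alternatives were the replicate block, other probe set choices, filters, rescalings, variance models, array weights, the Gapdh difference and leaving out arrays.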

Additional observations from a re-analysis of the deposited data

How the results depend on the processing

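Of 223 alternative values of the 13 genes given with all their arrays, 193 kept direction and call, 29 changed sign and 1 newly passed; the sign changes concern Nfkbia, Nfkbie, Nfkbiz, Ikbkg, Nfkb2, Rela and Ikbkb, and the causes were not tested. Genes called over the whole table numbered 36 with the Gapdh difference as a covariate, 1406 with array weights, 252 with a variance trend and robust prior and 298 without dim genes. With 1 array left out they numbered 18 to 251 (23, 31 and 56 without control replicates 1, 2 and 3, and 251, 23 and 18 without deficient replicates 1, 2 and 3). The setting without the 2 controls of highest Gapdh difference left control replicate 3 as the only control, so its count over the whole table is not given. NF-kB members called numbered 1 (Nfkbib, log2 0.81, adjusted p = 0.0131) with array weights and 0 in the other 15 settings. Other pathway genes called numbered 6 with array weights, 2 with the mean of probe sets, 1 each (Irak2) with median centring, repeated quantile normalisation, the variance trend and without dim genes, and 0 to 1 with 1 array left out (Card10 without deficient replicate 1). Members with separate groups numbered 7 with the mean of probe sets (22.8% of all genes were separate there), 7 with median centring (24.6%) and 8 with repeated quantile normalisation (22.9%). They numbered 1 of 17 without dim genes (31.1%) and 5 to 9 with 1 array left out (29.6% to 36.0%). Without the 2 controls of highest Gapdh difference they numbered 12 (52.6%), where groups separate more easily because only 1 control is left. The members' median difference was 0.12 with array weights and −0.0078 to 0.098 with 1 array left out.

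Nfkbia stood at 0.13 with array weights, 0.050 with the mean of probe sets, 0.033 with median centring, 0.00014, 0.075, 0.10 and 0.10 by its other probe sets, and −0.16 to 0.054 with 1 array left out. Nfkbie stood at −0.072 with the Gapdh covariate, −0.18 without the 2 controls and −0.18 to 0.15 with 1 array left out; Nfkbiz at 0.020, 0.042 and, with array weights, 0.094 (−0.20 to 0.083); Ikbkg at −0.026, −0.027 and −0.025 (−0.025 to 0.024). Nfkb2 and Rela ran from −0.0051 to 0.41 and −0.010 to 0.29 with 1 array left out, and 2 probe sets of Ikbkb gave 0.18 and 0.043. With the replicate block 113 genes, 0 members and 0 other pathway genes were called, and the block changed no sign among the 13 genes; every member's difference is the same in that fit, since each number occurs once per group. The number of arrays, and for dim genes such as Il6, Ccl2 and Ptgs2 the floor of the scale, limit what can be seen.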
